A study of Mus musculus with 24 samples.

Results

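Lactacystin, an irreversible inhibitor of the proteasome, was applied to primary cortical neurons at 1 µM for 8 h or at 0.1 µM for 15 h, and the RNA of these cultures is compared here gene by gene. The comparison rests on 6 of the 24 bead arrays of the series: 3 arrays of cultures treated with 1 µM for 8 h (Hlac-8h) and 3 of cultures treated with 0.1 µM for 15 h (Llac-15h). The 6 arrays of cultures given no treatment (Ctrl) serve as the baseline for both. All cultures were prepared from the neocortex of Swiss albino mouse fetuses at gestational day 15 or 16 and were treated on day 5 in culture; the lactacystin stock was in dimethyl sulfoxide and was diluted in Neurobasal medium. The remaining arrays, 3 each for 1 µM at 5, 15 and 24 h and for 0.1 µM at 24 h, enter the estimate of the spread and are described at the end. The pair was chosen by the measured level of proteasome subunit RNA, which stood at a similar height above the untreated cultures in both groups. Dose and time differ together between the groups, so the share of each cannot be told apart. The labels give no vehicle for the untreated cultures and do not say whether arrays came from separate cultures, so p-values measure the spread between these samples, which may be technical.

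The proteasome degrades proteins tagged with ubiquitin. When it is blocked, cells are known to raise the RNA of its subunits through the transcription factor NRF1 (Nfe2l1). Unfolded proteins are also known to induce heat shock proteins through HSF1, oxidative stress to induce detoxifying enzymes through NRF2, and several stresses to induce ATF4, whose RNA is translated when the initiation factor eIF2 is phosphorylated. ATF4 and its target CHOP (Ddit3) drive genes of amino acid supply and, when stress lasts, of cell death.

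Levels are given as log2 normalised signal and differences as log2 of 1 µM 8 h minus 0.1 µM 15 h, so that 1 is 2-fold; errors on differences are standard errors. After the removal of dim probes, 10891 genes were tested. The spread between arrays was taken as the root mean square of their log2 differences over these genes. It was 0.214 to 0.258 within 1 µM 8 h, 0.245 to 0.307 within 0.1 µM 15 h, and 0.567 to 0.618 between arrays of the 2 groups. The median raw signal was 57.4 to 73.7 intensity units at 1 µM 8 h and 56.3 to 65.4 at 0.1 µM 15 h, with 11317 to 11965 and 11574 to 12208 probes detected. The cultures are labelled as cortical neurons. Of 6 measured general neuronal markers, Tubb3, Map2, Syt1, Stmn2 and Dcx were detected on all 6 arrays and Snap25 on 1, and astrocyte and oligodendrocyte lineage markers (6 of 6 and 7 of 7 measured) were detected on all 6 arrays as well. Of the endothelial and microglial lists only 1 of 5 and 4 of 7 markers could be measured.

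The untreated arrays were not alike: the same measure was 0.289 to 0.546 among them. Untreated arrays 2 and 4 stood apart. The clearest case, chosen after its values were seen, was the zinc finger gene Zfp871, at 8.54, 8.28 and 8.75 on the 1 µM 8 h arrays, at 6.11, 6.14 and 6.20 on the 0.1 µM 15 h arrays, and at 5.80 and 5.81 in untreated arrays 2 and 4 and 7.96 to 8.36 in the other 4. Arrays 2 and 4 were the 2 highest untreated arrays for 239 (58.9%) of the 406 genes that were lower by at least 2-fold at 1 µM 8 h than at 0.1 µM 15 h, against 1127 (10.3%) of all genes tested. They were the 2 lowest for 89 (28.1%) of the 317 genes higher by at least 2-fold, against 962 (8.83%) of all genes. For the ATF4 and CHOP regulators described below, arrays 5 and 6 were instead the highest of the untreated arrays by the list's median. What set these arrays apart was not tested. The difference between the treated groups does not use their level, but their spread enters its standard error and p-value.

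The RNAs of the proteasome subunits, by which the pair was chosen, are given without a test. Of 31 measured subunits, the median stood 0.76 above untreated cultures at 1 µM 8 h and 0.63 above them at 0.1 µM 15 h, and the median difference between the treated groups was 0.03. The subunits did not all sit at the same height, as the plot of each subunit by array shows. Psmd4, a ubiquitin receptor of the regulatory particle, was at 13.10, 13.14 and 13.19 at 1 µM 8 h and at 12.70, 12.70 and 12.70 at 0.1 µM 15 h, with untreated arrays at 11.67 to 12.03 with a median of 11.87. Psmd11, a lid subunit, was at 6.06, 5.81 and 5.94 at 1 µM 8 h and at 5.02, 5.30 and 5.37 at 0.1 µM 15 h, where 2 of 3 arrays detected it. Both were higher on every 1 µM 8 h array, as were 29.2% of all genes tested. Psmb5, the chymotrypsin-like subunit that lactacystin modifies, lay the other way, at 10.56, 10.497 and 10.40 at 1 µM 8 h against 11.06, 11.10 and 11.15 at 0.1 µM 15 h, as did Psmd8, at 10.12, 10.37 and 10.34 against 11.28, 11.26 and 11.28. Psmc3, an ATPase of the base, overlapped between the groups at 12.16, 12.13 and 12.08 and 12.09, 12.28 and 12.19. The ATPase gene Psmc1 had a difference of 1.33 that rested on 1 array: it was at 9.21, 9.68 and 9.20 at 1 µM 8 h and at 9.69, 5.12 and 9.30 at 0.1 µM 15 h, where replicate 2 lay far below the others. Among 16 measured assembly factors and activators the median difference was -0.24, against 0.05 with median centring and -0.02 with the authors' ratios, so that its direction depends on the scaling. The immunoproteasome subunit Psmb9 was not detected at 1 µM 8 h but was at 5.83, 6.04 and 6.27 at 0.1 µM 15 h.

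**Figure D1:**
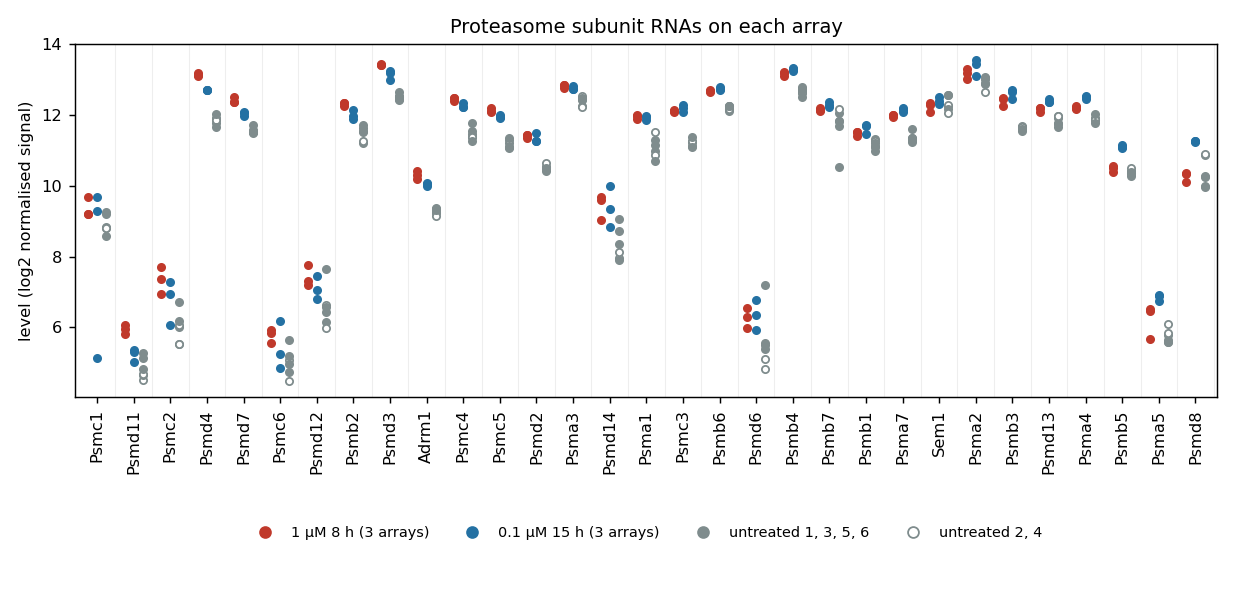
Level of each of 31 proteasome subunit RNAs (vertical axis, log2 normalised signal) on each array; red points are 1 µM 8 h, blue points 0.1 µM 15 h, grey points untreated, with untreated arrays 2 and 4 open. Genes run by their difference between the treated groups, from Psmc1 at the left to Psmd8 at the right; for most of them red and blue points lie together above the grey ones.

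Beyond the proteasome the groups differed widely. At a Benjamini-Hochberg adjusted p below 0.05 in limma, 2312 genes (21.2% of those tested) were higher at 1 µM 8 h than at 0.1 µM 15 h and 2162 (19.9%) were lower, 41.1% in either direction. The arrays of the groups did not overlap for 3179 genes (29.2%) with higher and 2956 (27.1%) with lower values at 1 µM 8 h. A change of at least 2-fold was reached by 317 genes (2.91%) upward and 406 (3.73%) downward. The balance of directions depends on how arrays are scaled: with median centring, which moved the median of all genes from 0.014 to 0.158, 3215 genes were higher and 1134 lower (73.9% of calls higher, against 51.7%), and with the authors' ratios, whose median was 0.068, 2822 were higher and 1398 lower (66.9% higher). Changes of lists are therefore read against these medians. With the authors' ratios a gene with several probes was also represented by the probe of highest mean log2 ratio, not the brightest. Scaling and probe choice are thus mixed in every count with the ratios. With the slide as a block the counts were 2567 and 2439. Against untreated cultures, which both treated groups share, 2186 genes (20.1%) were higher and 2160 (19.8%) lower at 1 µM 8 h, 39.9% together, and 929 (8.53%) were higher and 873 (8.02%) lower at 0.1 µM 15 h, 16.5% together. The 1802 calls at 0.1 µM 15 h were 1047 without its replicate 1, 1074 without its replicate 2, and 445 in a fit of the 2 groups alone.

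Of the 40 gene lists examined, ATF4 and CHOP regulators had the highest median difference. All 17 measured genes of this list passed the test as higher at 1 µM 8 h, with a median of 2.15. Their median stood 1.85 above untreated cultures at 1 µM 8 h and at -0.07 from them at 0.1 µM 15 h. Atf3, a stress-induced repressor and activator of the ATF family, was at 8.33, 8.36 and 8.24 at 1 µM 8 h against 4.40, 4.57 and 4.88 at 0.1 µM 15 h, where no array detected it; it was at least 9.51-fold higher (adjusted p = 1.07e-12), a bound taken against the lowest detected signal. Trib3, a pseudokinase that restrains AKT and ATF4 signalling, was at 9.82, 9.999 and 9.86 at 1 µM 8 h against 6.05, 6.25 and 6.40 at 0.1 µM 15 h, a difference of 3.66 ± 0.42 (adjusted p = 6.89e-07). Chac1, which degrades glutathione, was at 12.75, 12.66 and 12.67 against 9.08, 9.21 and 8.998, a difference of 3.59 ± 0.33 (adjusted p = 4.60e-08). Every 1 µM 8 h array was far above every 0.1 µM 15 h array for these 3 genes. The secreted stress factor Gdf15 was at 7.95, 7.86 and 7.77 at 1 µM 8 h against 4.57, 4.499 and 4.79 at 0.1 µM 15 h, again below detection on all 3 arrays of 0.1 µM 15 h, and was at least 6.95-fold higher (adjusted p = 1.07e-12). Ddit3 itself was at 10.46, 10.45 and 10.52 against 7.87, 8.03 and 8.24, a difference of 2.43 ± 0.21 (adjusted p = 1.92e-08), with untreated arrays at 7.65 to 8.95 with a median of 8.23. The stress-induced chromatin factor Nupr1 was higher by 2.51 ± 0.20, Ppp1r15a, the phosphatase subunit that reverses eIF2 phosphorylation, by 2.51 ± 0.22, and the AP-1 repressor Jdp2 by 2.39 ± 0.21. Within each slide the list's median difference was 2.47, 2.09 and 1.84. Among untreated arrays the list ran highest in array 5, to which 1 µM 8 h had a median of 1.01, and lowest in array 3, to which it had 2.44.

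**Figure D2:**
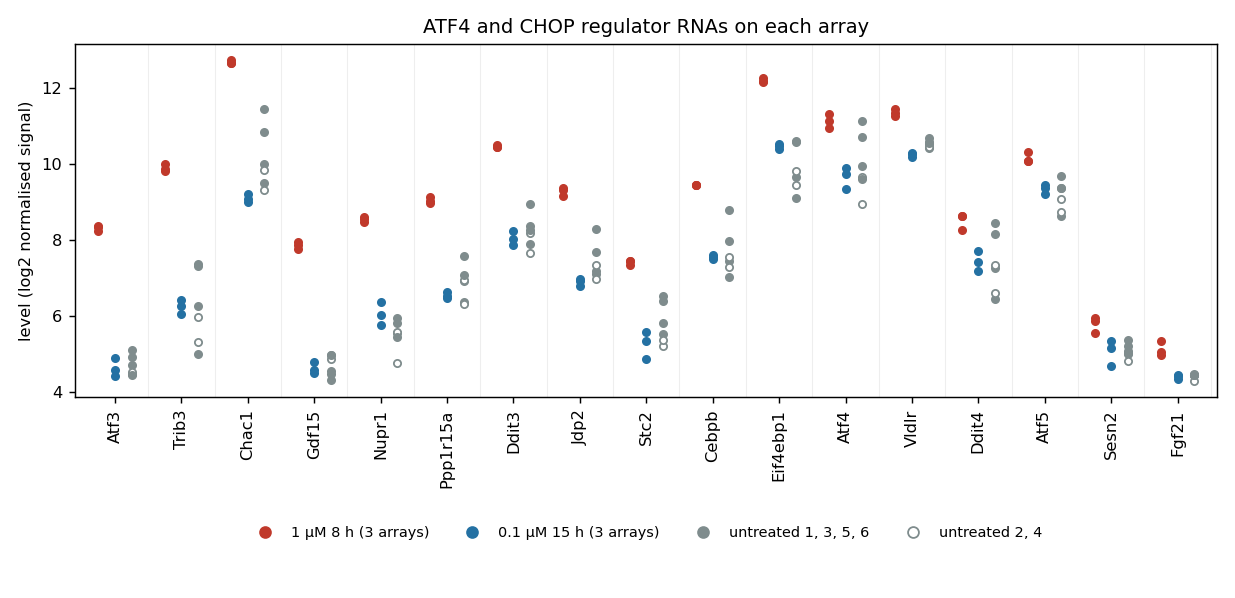
Level of the 17 ATF4 and CHOP regulator RNAs (log2 normalised signal) on each array, in the order of their difference. The red points of 1 µM 8 h stand above the blue points of 0.1 µM 15 h for all 17 genes, and for most of them the blue points lie among the grey untreated ones.

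Promoters are shown for the 5 of the 12 largest rises, in order of size, that hold the letters TGATGNAA on either strand, the composite site that heterodimers of C/EBP factors with ATF4 bind. They were chosen after the search. Each window covers 250 bases before to 50 after the RefSeq start (GRCm38.p6), printed 5′ to 3′ on the gene's strand, with the match in capitals.
Atf3, chr1:191183284-191183583, minus strand: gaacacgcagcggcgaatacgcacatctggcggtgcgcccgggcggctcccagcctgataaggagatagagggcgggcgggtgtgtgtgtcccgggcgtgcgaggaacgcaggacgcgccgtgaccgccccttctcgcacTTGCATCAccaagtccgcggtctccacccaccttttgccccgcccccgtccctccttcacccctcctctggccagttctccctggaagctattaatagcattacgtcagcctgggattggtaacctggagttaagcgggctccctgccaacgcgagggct
Trib3, chr2:152344011-152344310, minus strand: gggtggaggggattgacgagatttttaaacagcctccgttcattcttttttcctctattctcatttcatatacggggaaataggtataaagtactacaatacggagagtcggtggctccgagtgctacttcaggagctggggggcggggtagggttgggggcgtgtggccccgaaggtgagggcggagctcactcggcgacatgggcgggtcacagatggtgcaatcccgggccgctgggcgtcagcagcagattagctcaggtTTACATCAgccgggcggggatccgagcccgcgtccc
Chac1, chr2:119350992-119351291, plus strand: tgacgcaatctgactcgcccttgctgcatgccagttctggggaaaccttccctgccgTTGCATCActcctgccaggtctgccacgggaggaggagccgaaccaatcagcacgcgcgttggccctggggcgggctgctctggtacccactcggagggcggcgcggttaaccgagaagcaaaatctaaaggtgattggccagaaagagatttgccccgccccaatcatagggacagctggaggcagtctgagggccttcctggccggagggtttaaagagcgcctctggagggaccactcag
Herpud1, chr8:94386179-94386478, plus strand: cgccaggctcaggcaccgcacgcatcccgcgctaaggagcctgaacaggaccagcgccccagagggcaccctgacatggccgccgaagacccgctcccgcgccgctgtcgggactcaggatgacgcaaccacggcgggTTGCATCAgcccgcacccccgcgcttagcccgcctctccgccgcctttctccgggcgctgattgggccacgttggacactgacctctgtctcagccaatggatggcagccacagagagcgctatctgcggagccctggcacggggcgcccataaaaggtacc
Nupr1, chr7:126625421-126625720, minus strand: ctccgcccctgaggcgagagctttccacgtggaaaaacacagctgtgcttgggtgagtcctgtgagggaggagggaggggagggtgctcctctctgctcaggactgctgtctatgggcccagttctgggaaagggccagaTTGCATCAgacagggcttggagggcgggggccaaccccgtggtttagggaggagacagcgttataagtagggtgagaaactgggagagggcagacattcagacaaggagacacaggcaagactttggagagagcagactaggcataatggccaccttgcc
The match starts 110 bases before the start in Atf3 and Nupr1, 112 in Herpud1 and 193 in Chac1, each as the same 8 letters, and 15 bases after the start in Trib3 with 1 other letter. Of the 12 largest rises 11 have a window in the table, and 6 of these hold a match, against 1 of 9 of the largest falls, 7 of 16 ATF4 and CHOP regulators and 3.01% of the 7981 genes tested that have a window. Over all 32851 windows 3.97% hold one. A match describes the letters only.

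Genes of amino acid supply moved the same way. Counts of list members here and below are to be set beside 21.2% higher and 19.9% lower of all genes tested. Where the main count of a list is given as 0 here and below, the count at an unadjusted p below 0.05 in limma was 0 too, except for ubiquitin genes, with 1 lower, and the neuronal markers given below. Of 18 measured genes for amino acid synthesis and transport, 14 were higher at 1 µM 8 h and 0 lower, with a median of 0.80. Mthfd2, the mitochondrial folate enzyme of one-carbon supply, was at 11.77, 11.77 and 11.79 at 1 µM 8 h against 9.34, 9.42 and 9.28 at 0.1 µM 15 h, a difference of 2.43 ± 0.22 (adjusted p = 2.70e-08). Against untreated cultures Mthfd2 changed by 1.36 at 1 µM 8 h and by -1.07 at 0.1 µM 15 h (adjusted p = 4.60e-04). The neutral amino acid carrier Slc1a4 was higher by 1.58 ± 0.15, serine hydroxymethyltransferase Shmt2 by 1.45 ± 0.25, and asparagine synthetase Asns by 0.74 ± 0.21. Of 15 cytosolic tRNA synthetases 12 were higher and 1 lower. Cars, which charges cysteine tRNA, led with 1.70 ± 0.17, and Yars was detected on no 0.1 µM 15 h array. Dars, the aspartyl enzyme, was the one that fell (difference -0.79 ± 0.21, adjusted p = 0.00523), at 8.73, 8.90 and 8.74 at 1 µM 8 h against 9.58, 9.72 and 9.43 at 0.1 µM 15 h. Among 36 translation factors 11 were higher and 1 lower (20 and 0 with median centring, 17 and 1 with the authors' ratios), including the eIF2B subunits Eif2b1, Eif2b2 and Eif2b4 (0.51 ± 0.11, 0.60 ± 0.10 and 0.75 ± 0.08), which recycle eIF2, and the release factor Etf1 (0.98 ± 0.09). The median over 70 cytosolic ribosomal protein genes was -0.001, with 3 higher and 2 lower; with median centring it was 0.19, with 10 and 2.

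Genes of the endoplasmic reticulum split. Of 18 measured, 6 were higher and 5 lower, against 21.2% and 19.9% of all genes; with median centring 8 were higher and 1 lower. Herpud1, which serves the degradation of misfolded ER proteins, was at 9.65, 9.71 and 9.499 at 1 µM 8 h against 6.88, 7.26 and 7.09 at 0.1 µM 15 h, a difference of 2.54 ± 0.17 (adjusted p = 9.94e-10), and Xbp1, the transcription factor of the unfolded protein response, was higher by 1.24 ± 0.09. The chaperone BiP (Hspa5) was higher by 0.82 ± 0.15 and the ligase Syvn1 by 0.63 ± 0.11. The translocon subunit Sec61b ran the other way, at 9.12, 9.07 and 9.02 against 9.99, 10.18 and 10.02, and the disulfide isomerases Pdia3 and Pdia4 had differences of -0.53 ± 0.12 and -0.45 ± 0.14 whose calls were lost with median centring, for Pdia4 also with the authors' ratios and without 1 µM 8 h replicate 1 or 0.1 µM 15 h replicate 2. Of 20 genes for ubiquitin, its adaptors and p97, 8 were higher and 0 lower (1 lower with the slide as a block). Zfand2a, an arsenite-inducible partner of the proteasome, was higher by 0.71 ± 0.08 and Nfe2l1 by 0.38 ± 0.09, while the interval of the difference in Ubb was -0.29 to 0.05.

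Heat shock genes did not share one pattern. The small heat shock gene Hspb1 was at 7.38, 7.44 and 7.45 at 1 µM 8 h against 5.85, 5.76 and 6.82 at 0.1 µM 15 h, a rise of 1.28 ± 0.18 (adjusted p = 1.02e-05); replicate 3 of 0.1 µM 15 h lay nearest to 1 µM 8 h. Hspb8, the partner of Bag3 in selective autophagy, was at 8.96, 9.10 and 8.94 against 10.46, 10.51 and 10.504, a difference of -1.49 ± 0.26 (adjusted p = 9.95e-05), although both groups were above the untreated range of 6.36 to 8.03 with a median of 6.58. The crystallin Cryab, which is abundant in glia, was at 6.01, 6.19 and 6.24 against 9.01, 9.18 and 9.11 (difference -2.95 ± 0.31, adjusted p = 2.30e-07), with untreated arrays at 6.67 to 8.46 with a median of 7.5. So of 4 measured small heat shock genes 1 rose and 2 fell, and for Cryab the untreated arrays lay between the groups. Among 26 HSP70, HSP90 and cochaperone genes 9 were higher and 1 lower, led by the J-domain protein Dnajb1 at 12.35, 12.32 and 12.46 against 10.98, 11.13 and 11.12 (difference 1.30 ± 0.08, adjusted p = 1.74e-10). Hsf1, the factor that drives these genes, was higher by 0.84 ± 0.11 and Hsph1, an HSP110 chaperone, by 0.79 ± 0.10. Bag3 did not pass the test, with an interval of -0.24 to 0.39, nor did the constitutive Hspa8 (-0.46 to 0.30). Of 8 measured TRiC subunits 1, Cct4, was higher. The share higher was 34.6% for the 26 HSP70, HSP90 and cochaperone genes and 12.5% for TRiC, against 21.2% of all genes tested.

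Many immediate early genes were higher at 1 µM 8 h. Of 25 AP-1 and immediate early genes 14 were higher and 1 lower. Jun was at 10.24, 10.15 and 10.23 at 1 µM 8 h against 7.61, 7.76 and 7.97 at 0.1 µM 15 h, a difference of 2.43 ± 0.19 (adjusted p = 5.92e-09). Egr1, an activity-regulated zinc finger factor, was at 10.88, 10.72 and 10.66 against 9.55, 9.33 and 9.36, and Arc, which acts at synapses, at 6.69, 6.66 and 6.71 against 5.61, 5.44 and 5.68. The arrays of the groups did not overlap for any of the 3, as was also so for 29.2% of all genes with higher values at 1 µM 8 h. Fos was higher by 1.56 ± 0.58, but its call was lost when any one of the 6 arrays was left out. The nuclear receptor gene Nr4a3 was the lower one, at 5.52, 5.39 and 5.29 against 6.0, 5.87 and 5.97, and its call was lost without either 0.1 µM 15 h replicate 1 or 3 and without 1 µM 8 h replicate 2 or 3. Dusp16 and Dusp1, phosphatases that switch off MAP kinases, were higher by 2.19 ± 0.16 and 1.05 ± 0.09. In their list of 13 phosphatase and Sprouty genes 4 (30.8%) were higher and 0 lower, where 21.2% of all genes were higher. The median of that list was 0.0005. It was 0.25, 0.11 and 0.20 between arrays of replicates 1, 2 and 3, and 0.23 with median centring, against 0.158 for all genes. The list's median therefore depends on how it is taken. Tnfrsf12a, the receptor of TWEAK, was at 9.78, 9.82 and 9.84 against 7.94, 7.70 and 8.18 (difference 1.87 ± 0.18, adjusted p = 5.26e-08), above the untreated range of 6.32 to 7.36 with a median of 6.85 in both groups.

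**Figure D3:**
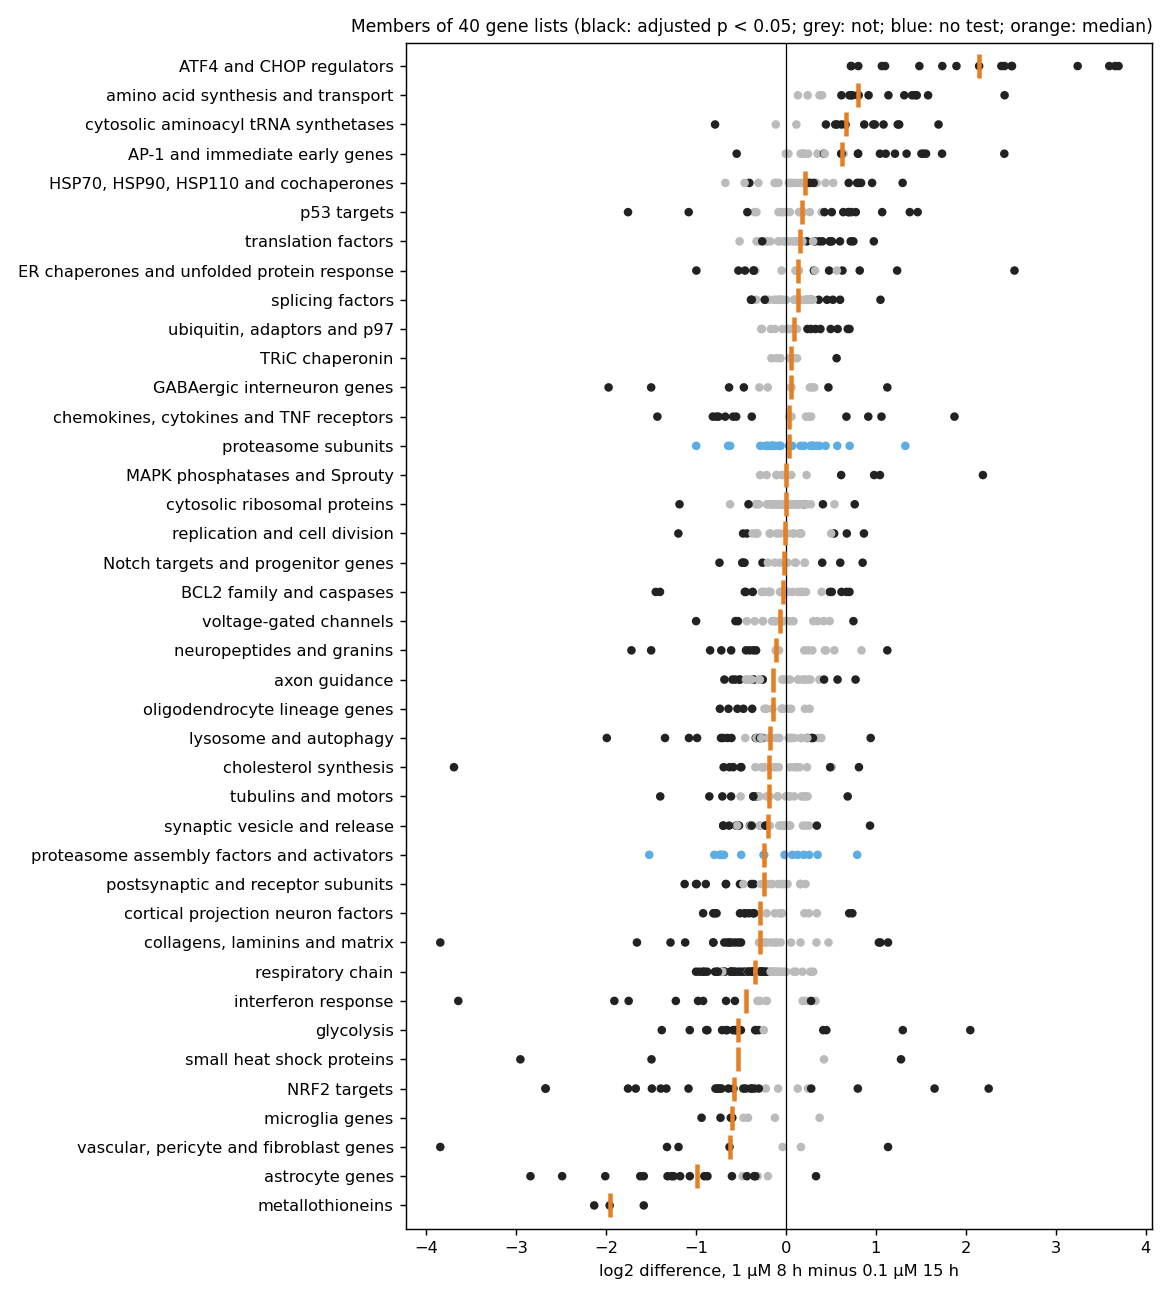
Log2 difference, 1 µM 8 h minus 0.1 µM 15 h, of the measured members of 40 gene lists; each point is a gene, black where it passed the test, grey where it did not, blue for the proteasome lists, which were not tested, and the orange bar is the list's median. ATF4 and CHOP regulators lie farthest right with a median of 2.15, metallothioneins farthest left at -1.96, and proteasome subunits sit at 0.03.

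NRF2 targets moved in both directions, most of them down. Of 29 measured, 4 were higher and 21 lower at 1 µM 8 h than at 0.1 µM 15 h, with a median of -0.58; 13 were lower under median centring. Against untreated cultures the list's median was -0.07 at 1 µM 8 h and 0.62 at 0.1 µM 15 h, where 20 members were higher. Hmox1, which breaks down heme, was the other way round, at 10.79, 11.13 and 10.99 at 1 µM 8 h against 9.26, 9.20 and 9.5 at 0.1 µM 15 h, with untreated arrays at 8.05 to 9.20 with a median of 8.84 (difference 1.65 ± 0.24, adjusted p = 1.02e-05). Osgin1, an oxidative stress growth inhibitor, was at 7.84, 7.61 and 7.71 against 5.56, 5.42 and 5.42, higher by 2.25 ± 0.20. The glutathione transferase Gsta4 was at 9.60, 9.67 and 9.60 at 1 µM 8 h against 12.23, 12.13 and 12.52 at 0.1 µM 15 h and 11.63 and 11.28 in untreated arrays 2 and 4 and 10.19 to 10.81 in the other 4 (difference -2.67 ± 0.24, adjusted p = 3.14e-08). Blvrb, a biliverdin reductase, was at 6.47, 6.40 and 6.24 against 8.02, 8.09 and 7.997, and only the 0.1 µM 15 h arrays stood above the untreated range of 5.71 to 6.73 with a median of 6.26. Srxn1 and Gclm, 2 enzymes of redox defence, were above untreated cultures in both groups, by 1.41 and 0.94 at 1 µM 8 h and by 1.63 and 0.70 at 0.1 µM 15 h, and their differences between the groups did not pass the test (intervals -0.72 to 0.27 and -0.10 to 0.59). Gstm1 had a difference of -2.67 ± 0.15 on its brighter probe, while another probe of it gave a difference of -0.26 that did not pass. All 3 metallothioneins, zinc-binding proteins, were lower: Mt1 was at 11.82, 11.89 and 11.91 at 1 µM 8 h against 13.73, 13.85 and 13.91 at 0.1 µM 15 h, and Mt2 at 6.98, 6.92 and 6.99 against 9.21, 9.01 and 9.06. Both lay below the untreated median at 1 µM 8 h and above it at 0.1 µM 15 h. The core letters of the site that NRF2 binds, TGACNNNGC on either strand, are in the windows of 9 of 26 NRF2 targets, against 16.54% of tested genes with a window. They are also in 5 of 15 genes of amino acid synthesis and transport and in 4 of 16 ATF4 and CHOP regulators, so they do not mark the NRF2 list alone. The CREB and ATF site TGACGTCA was searched as well and is in 0 of the 26 and in 1 of 16 ATF4 and CHOP regulators, against 3.6%. The searches were separate, so a window can hold several motifs.

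Among the cell type lists, astrocyte genes had the lowest median. Of 20 measured, 16 were lower and 1 higher, with a median of -0.99, and 13 were lower under median centring. Fewer cells of a type and less RNA per cell cannot be told apart in these arrays. Gfap, the intermediate filament of astrocytes, was at 5.83, 6.20 and 5.98 at 1 µM 8 h against 7.75, 7.72 and 8.55 at 0.1 µM 15 h, with 7.96 and 7.004 in untreated arrays 2 and 4 and 5.48 to 6.25 in the other 4 (difference -2.01 ± 0.40, adjusted p = 4.11e-04). Aqp4, the water channel of astrocyte endfeet, was at 7.43, 7.59 and 7.40 against 10.27, 10.15 and 10.51, with 10.53 and 10.16 in untreated arrays 2 and 4 and 8.86 to 9.25 in the other 4 (difference -2.84 ± 0.28, adjusted p = 1.13e-07). The lipid carrier Apoe was at 10.22, 10.36 and 10.17 against 11.77, 11.98 and 11.84. Each of the 3 was lower on every 1 µM 8 h array than on any 0.1 µM 15 h array, as were 27.1% of all genes tested. For Aqp4, among the 12 largest falls, the selection required it. Untreated arrays 2 and 4 came close to 0.1 µM 15 h for Aqp4. Sox9, a transcription factor of glial precursors, was the exception, higher by 0.33 ± 0.10. Against single untreated arrays the list's median at 0.1 µM 15 h was 0.44, -0.03, 0.60, 0.21, 0.72 and 0.66 for arrays 1 to 6, and at 1 µM 8 h it was below 0 against all 6, between -1.05 for array 2 and -0.34 for array 5. The signals of the 6 measured astrocyte markers were also summed, so that bright markers weigh most. The log2 of this sum was 13.17 to 13.29 at 1 µM 8 h and 14.02 to 14.17 at 0.1 µM 15 h, against 13.56 to 14.16 in untreated cultures. The part of untreated arrays 2 and 4 in these values was not tested.

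**Figure D4:**
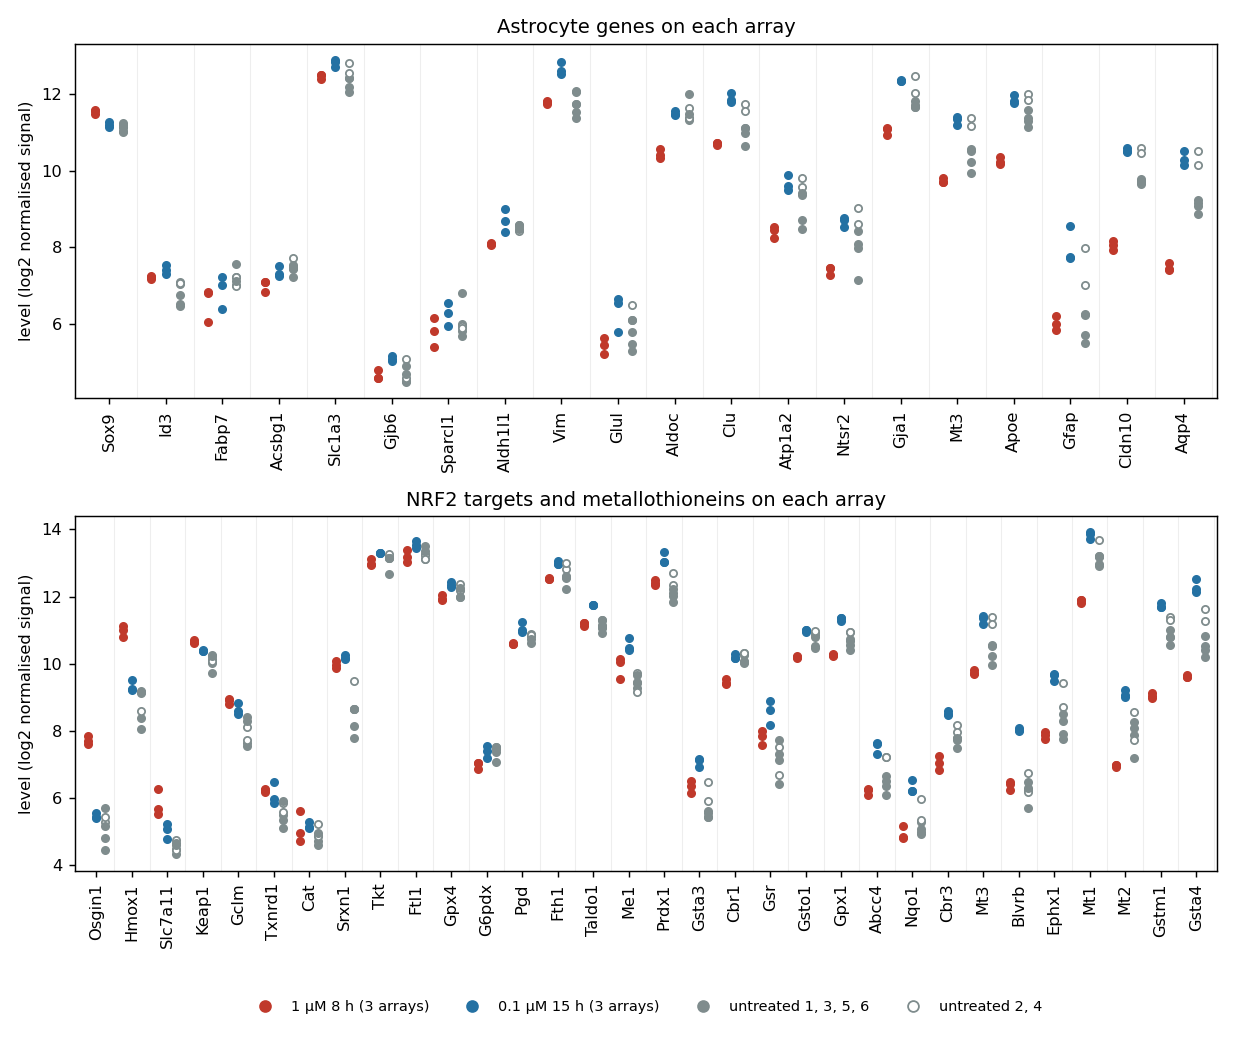
Level (log2 normalised signal) of astrocyte genes, above, and of NRF2 targets and metallothioneins, below, on each array, in the order of their difference. Red points of 1 µM 8 h stand below blue points of 0.1 µM 15 h for most genes toward the right, and open grey points, untreated arrays 2 and 4, often lie near the blue ones.

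Genes of the interferon response, of vessels and matrix and of other glia were also lower more often than higher. These counts are to be set beside 21.2% higher and 19.9% lower of all genes tested. The share lower was 50% for interferon-response genes and 33.3% for oligodendrocyte lineage genes. Of 16 interferon-response genes 8 were lower and 1 higher: Ifitm3, an antiviral membrane protein, was at 5.24, 4.997 and 4.71 at 1 µM 8 h against 8.56, 8.52 and 8.79 at 0.1 µM 15 h, with 8.10 and 7.05 in untreated arrays 2 and 4 and 5.19 to 6.44 in the other 4 (difference -3.64 ± 0.42, adjusted p = 6.54e-07). It was detected on 1 of the 3 arrays of 1 µM 8 h, so the size of the difference rests on levels near or below detection. Bst2, which tethers viruses to membranes, was at 6.26, 6.21 and 6.19 against 8.03, 7.78 and 8.09, and Casp1, the inflammasome protease, at 6.68, 6.78 and 6.84 against 8.12, 8.11 and 8.26. Prelp, a proteoglycan of the matrix, was at 5.69, 5.40 and 5.12 against 9.20, 9.10 and 9.42, a difference of -3.84 ± 0.24 (adjusted p = 2.48e-10), and 13 of 28 matrix genes were lower and 3 higher, among the higher ones tenascin C (Tnc, 1.05 ± 0.15), of which 3 other probes did not pass. Of 7 vascular, pericyte and fibroblast genes 4 were lower and 1 higher: Igfbp7, a secreted protein of vessels, had a difference of -1.32 ± 0.19, and the proteoglycan decorin (Dcn) was at 8.58, 8.62 and 8.76 at 1 µM 8 h against 7.68, 7.45 and 7.43 at 0.1 µM 15 h, higher by 1.13 ± 0.29 (adjusted p = 0.00359), while 1 of its 2 other probes did not pass. The log2 of the summed signal of the 3 measured pericyte and fibroblast markers was 8.82 to 9.0 at 1 µM 8 h and 8.29 to 8.44 at 0.1 µM 15 h, against 8.3 to 9.7 in untreated cultures. Of these 3 markers 1 was higher and 2 were lower, so the sum does not stand for each of them. Among oligodendrocyte lineage genes 5 of 15 were lower and 0 higher (2 and 1 with median centring), with the lineage factor Olig1 at 12.73, 12.71 and 12.66 against 13.25, 13.21 and 13.25, whereas Sox10 lay at 9.09, 9.12 and 9.10 against 9.28, 9.27 and 9.41 and did not pass. The complement gene C1qb of microglia had a difference of -0.73 ± 0.18 and was detected on 2 of 3 arrays at 1 µM 8 h. Other large falls were those of the lipogenic regulator Thrsp (-3.69 ± 0.31, detected on 1 of 3 arrays at 1 µM 8 h), the secreted peptide gene Ecrg4 (-3.10 ± 0.35), the dynein light chain gene Dynlrb2 (-3.03 ± 0.27), the serine protease inhibitor Serpina3n (-2.79 ± 0.38), and the clone gene 0610041G09Rik (-4.08 ± 0.41), the largest of all. The interferon-induced Ifitm1 (-3.22 ± 0.27), the glutathione transferase Gstm2 (-2.84 ± 0.32, detected on 2 of 3 arrays at 1 µM 8 h) and the mucin-like gene Glycam1, which no 1 µM 8 h array detected and which was at least 5.18-fold lower, complete the 12 largest falls with those above. Another probe of Gstm2 gave a smaller difference of -0.89 that passed. Of the 12 largest rises, the clone gene 9430008C03Rik (2.70 ± 0.13) belongs to none of the lists. For Thrsp, Ecrg4, Dynlrb2, Serpina3n and 0610041G09Rik the mean of 0.1 µM 15 h stood above that of untreated cultures and the mean of 1 µM 8 h below it, by 1.33 and -2.36 for Thrsp.

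Neuronal lists had counts that depended on the scaling. Of 31 synaptic vesicle genes 8 (25.8%) were lower and 2 higher, and of 24 postsynaptic genes 9 (37.5%) were lower and 0 higher, where 19.9% of all genes were lower, with medians of -0.20 and -0.25. With median centring they were 0 lower and 5 higher, and 4 lower and 2 higher. The glutamate receptor gene Grm5 was at 8.98, 8.57 and 8.94 at 1 µM 8 h against 9.67, 9.78 and 10.03 at 0.1 µM 15 h (difference -0.998 ± 0.23, adjusted p = 0.00131). Of 20 projection neuron factors 10 were lower and 2 higher (3 and 3 with median centring), among the lower ones Tbr1, a factor of deep-layer neurons, at 8.19, 8.30 and 8.24 against 9.03, 9.003 and 9.07 (difference -0.79 ± 0.10, adjusted p = 2.18e-06). The interval of the difference in the GABA enzyme Gad1 was -0.28 to 0.39, while the neuropeptide genes Cck and Npy parted, with differences of -1.497 ± 0.20 and 1.13 ± 0.29; Npy was at -1.44 from untreated cultures at 0.1 µM 15 h. Of the 6 general neuronal markers 0 passed the limma test in either direction, with 1 higher and 1 lower at an unadjusted p below 0.05. The log2 of their summed signal was 13.83 to 13.93 at 1 µM 8 h and 13.82 to 13.90 at 0.1 µM 15 h, against 13.96 to 14.31 in untreated cultures.

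Energy genes also differed. Of 66 respiratory chain genes 42 were lower at 1 µM 8 h and 0 higher, with a median of -0.35, but 8 were lower and 1 higher under median centring and 20 lower in the authors' ratio table. Ndufb3, a complex I subunit, was at 9.73, 9.86 and 9.79 at 1 µM 8 h against 10.63, 10.71 and 10.75 at 0.1 µM 15 h (difference -0.91 ± 0.09, adjusted p = 1.13e-07), and Uqcr11 of complex III at 10.82, 10.93 and 10.81 against 11.60, 11.82 and 11.90. Of 22 glycolytic genes 17 were lower and 4 higher (7 and 4 with median centring). Pfkp, the platelet-type phosphofructokinase, had a difference of -1.38 ± 0.27 and triosephosphate isomerase Tpi1 one of -0.88 ± 0.14. Opposite to them, hexokinase Hk2 was at 8.61, 8.76 and 8.70 against 6.56, 6.55 and 6.81 (difference 2.05 ± 0.14, adjusted p = 1.03e-09) and the glucose carrier Slc2a1 at 9.82, 9.91 and 9.74 against 8.43, 8.56 and 8.59. Of 22 cholesterol synthesis genes 6 were lower and 2 higher (1 and 4 with median centring), and both groups stood below untreated cultures, with medians of -0.57 at 1 µM 8 h and -0.41 at 0.1 µM 15 h.

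Of 26 p53 targets 10 (38.5%) were higher and 3 (11.5%) lower, against 21.2% and 19.9% of all genes, with a median of 0.18. With median centring 12 were higher and 2 lower. Gadd45a, a DNA damage and stress gene, was at 8.58, 8.83 and 8.63 at 1 µM 8 h against 7.15, 7.27 and 7.23 at 0.1 µM 15 h (difference 1.46 ± 0.12, adjusted p = 7.34e-09), and Mdm2, the ligase for p53, at 11.37, 11.17 and 11.34 against 10.18, 10.25 and 10.24. The arrest gene Cdkn1a was above untreated cultures in both groups, by 0.55 at 1 µM 8 h and 0.40 at 0.1 µM 15 h, and its difference did not pass (interval -0.12 to 0.43). Fas, a death receptor, was detected on all 3 arrays of 0.1 µM 15 h and on none of 1 µM 8 h or untreated cultures. The BCL2 and caspase list had 5 higher and 5 lower of 31 (8 and 2 with median centring). Nol3, an inhibitor of apoptosis, was at 6.53, 6.5 and 6.81 at 1 µM 8 h against 7.95, 7.98 and 8.25 at 0.1 µM 15 h, both above the untreated range of 5.02 to 6.003 with a median of 5.51. Another probe of Nol3 gave a difference of -0.14 that did not pass, and a further probe one of -0.56 that passed.

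Further lists had members in both directions, to be set beside 21.2% higher and 19.9% lower of all genes; counts with median centring follow in brackets. The share lower ran from 8.33% of splicing factors to 47.1% of chemokine, cytokine and TNF receptor genes, and was 26.7% for axon guidance and 28% for tubulins and motors. Of 17 chemokine, cytokine and TNF receptor genes 4 were higher and 8 lower (4 and 6), among them the NF-kappaB subunit Relb, which no 0.1 µM 15 h array detected, and the growth factor of macrophages Csf1 (-1.43 ± 0.22). Of 21 neuropeptide and granin genes 1 was higher and 9 lower (1 and 4), with galanin (Gal) at 4.77, 4.93 and 4.79 at 1 µM 8 h against 5.70, 5.39 and 5.56 at 0.1 µM 15 h. The values of Gal at 1 µM 8 h lie below the lowest detected levels of those arrays, 5.19, 5.04 and 5.09. Of 13 GABAergic interneuron genes 2 were higher and 4 lower (2 and 2), and parvalbumin (Pvalb), a calcium buffer of fast-spiking interneurons, was at least 2.56-fold lower. Of 34 lysosome and autophagy genes 4 were higher and 11 lower (7 and 4), with cathepsin A (Ctsa) at -1.08 ± 0.20 and the autophagy gene Wipi1 at -1.34 ± 0.20. Of 25 tubulin and motor genes 1 was higher and 7 lower (4 and 4), with Tuba4a at -1.40 ± 0.25. Of 30 axon guidance genes 3 were higher and 8 lower (7 and 3), with the semaphorin receptor Plxnd1 at -0.68 ± 0.12 and the netrin receptor Unc5c at 0.77 ± 0.17. Of 16 Notch and progenitor genes 3 were higher and 5 lower (4 and 1), the target Hey1 by 0.85 ± 0.12 and the ligand Dll1 by -0.74 ± 0.14. Of 23 replication genes 3 were higher and 3 lower (5 and 1), with cyclin D1 (Ccnd1) at -1.19 ± 0.19. Of 36 splicing factors 6 were higher and 3 lower (16 and 0), with Tra2b at 1.05 ± 0.16. Of 23 voltage-gated channel genes 1 was higher and 3 lower (2 and 1).

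The means of the other treated groups, which the differences above do not use, show where these genes stood at other doses and times. Across the genes higher at 1 µM 8 h, the mean at 1 µM 15 h was above that at 0.1 µM 24 h in 85.0%, against 17.4% of the genes lower at 1 µM 8 h and 52.0% of all genes tested. ATF4 and CHOP regulators had medians of 1.21, 1.85, 2.497 and 2.43 from untreated cultures at 1 µM for 5, 8, 15 and 24 h, and of -0.07 and -0.52 at 0.1 µM for 15 and 24 h. At 1 µM they were thus above untreated cultures at each time, and at 0.1 µM at neither. NRF2 targets ran -0.02, -0.07, 0.18 and 0.56 at 1 µM, and 0.62 and 0.15 at 0.1 µM. Astrocyte genes lay below untreated cultures at every time at 1 µM, from -0.22 at 5 h to -1.29 at 24 h, and above them at 0.1 µM, by 0.45 at 15 h and 0.23 at 24 h. The proteasome subunits stood at 0.07 at 0.1 µM 24 h. All these medians share the 6 untreated arrays.

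**Figure D5:**
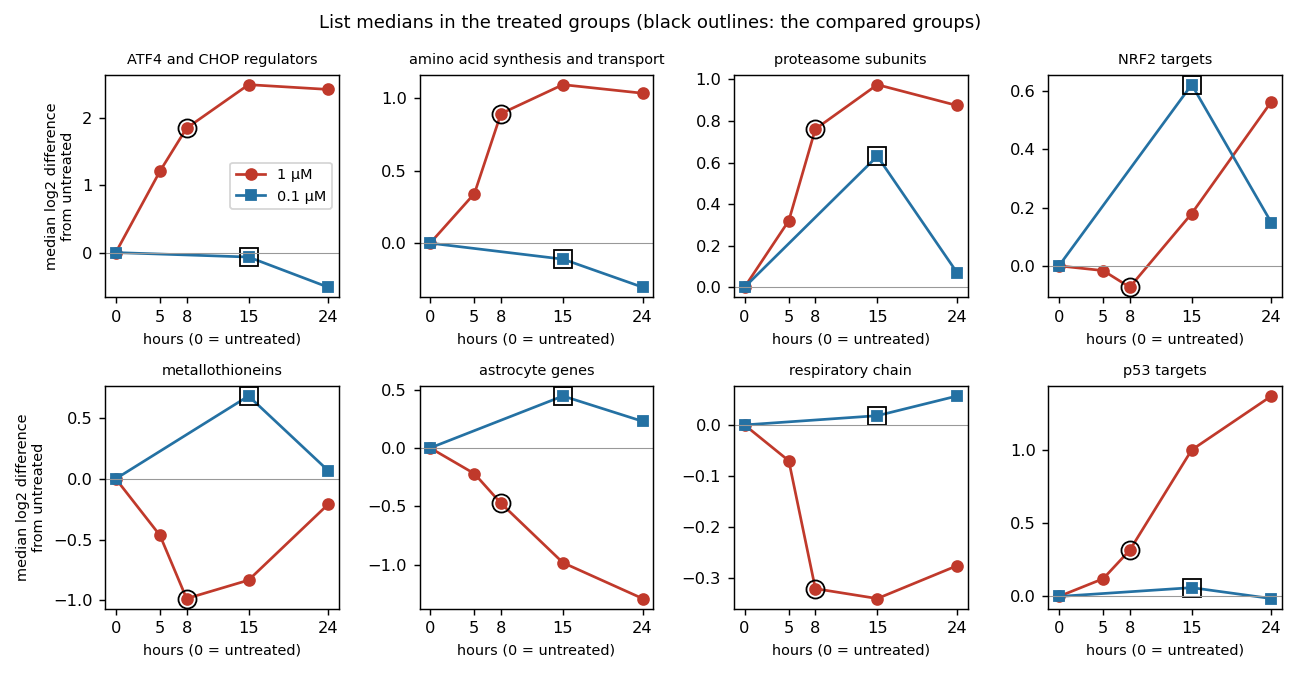
Median log2 difference from untreated cultures of 8 gene lists (vertical axes, which differ between panels) against hours of treatment, red for 1 µM and blue for 0.1 µM; black outlines mark 1 µM 8 h and 0.1 µM 15 h, and 0 h stands for the untreated arrays. The outlined points lie close together for proteasome subunits, at 0.76 and 0.63, and apart for ATF4 and CHOP regulators, at 1.85 and -0.07.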

How the data were processed

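RNA of 24 samples in 7 groups was hybridised to mouse Illumina bead arrays, read with BeadStudio 3.2.6 per the file headers. The deposited tables hold summarised bead intensities per probe with no background subtraction stated, a detection score per gene as a fraction of 1 per the file headers, and the authors' ratios, each intensity over its array's median and over the mean of the untreated arrays, as a recomputation from the deposited intensities gave. From the intensities, normexp correction by detection p (offset 16), quantile normalisation and log2 were computed in limma 3.58.1 (R 4.3.3; tables in Python 3.11.15 with pandas 2.3.3 and scikit-learn 1.9.0). Detection p-values were carried to probes by signal, from genes with 1 probe. Probes with a detection p below 0.01 on at least 3 arrays were kept, 13553 in all. The brightest probe stands for its gene, 10891 genes, of which 2083 had several. In the alternative with the authors' ratios the probe of highest mean log2 ratio was used instead. Symbols were taken from RefSeq by accession where they matched.

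One limma model with 7 group means over all 24 arrays, no block and moderated variances gave each difference with Benjamini-Hochberg adjusted p-values over all genes, named as limma's throughout; called means below 0.05, and intervals are at 95%. For a gene detected on no array of one group, a fold is a bound against the lowest detected signal. Named genes were the 12 largest rises and falls, members of lists by size of difference, and a fixed set. The members and lists were chosen with earlier results of these data known. Alternatives were other background corrections, scalings, filters, sample sets and the leaving out of single arrays. The array number limits the precision.

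The deposited signals of each treated array equal those of the scanner column on another slide than its description names (99.92% of 14487 genes for the best column), always within the group, so groups are unaffected; untreated arrays match their own. By the scanner columns, replicates of one number share a slide, which pairs them; deviations of same-numbered arrays of both groups from their means correlated at 0.295, 0.0456 and 0.372. Each treated group also lies at the same position on every slide; group and position cannot be told apart.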

Additional observations from a re-analysis of the deposited data

Results flagged for a closer look

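In 12 of 270 named genes 1 of the 6 untreated arrays stood apart from the other 5 by more than Dixon's 95% critical value for 6 values, where chance gives about 1 in 20 groups; 5 of the 12 were array 2, 6 were array 5 and 1 was array 3. These touch the comparisons with untreated cultures and not the size of the difference between the treated groups. The spread of the untreated arrays does enter the standard error and p-value of that difference. In array 2 the log2 level was 8.03 for Hspb8 against a median of 6.58 over the untreated arrays, 9.13 for Serpina3n against 7.2, 7.12 for Glycam1 against 5.18, 9.61 for B2m against 8.91 and 6.21 for Timp1 against 5.44. In array 5 it was 7.21 for Psmd6 against 5.44, 11.61 for Psma7 against 11.33, 10.52 for Psmb7 against 11.83, 8.49 for Kcnab2 against 9.5, 11.27 for Xbp1 against 11.52 and 7.1 for Dusp16 against 6.55. In array 3 it was 12.8 for Rpl7 against 12.75.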

How the results depend on the processing

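The count of genes lower at 1 µM 8 h was 1134 with median centring and 1398 with the authors' ratios, against 2162, and the calls of 0.1 µM 15 h against untreated cultures were 445 in a fit of those groups alone, against 1802. Leaving out single arrays gave 1953 to 2511 genes higher, 1860 to 2337 lower, 3501 to 4768 called at 1 µM 8 h against untreated cultures and 1047 to 2199 at 0.1 µM 15 h. The replicate block (slide), which is the paired fit, gave 2567 higher and 2439 lower, with 4922 and 2253 calls against untreated cultures at 1 µM 8 h and 0.1 µM 15 h, and changed no call of the 238 named genes called. Without untreated arrays 2 and 4, an alternative chosen after seeing the data, 2400 were higher and 2266 lower, with 3935 and 2544 calls against untreated cultures. Of the 238 named genes called, 166 kept the call under every alternative fitted gene by gene that measured them (the one that keeps all probes gives counts only), and 72 lost it under at least 1. Eef1a2 (0.037 with median centring, 0.11 with the authors' ratios), Rpl21 (0.026 with the ratios) and Syn1 (0.015 with the ratios) changed direction. With the ratios a gene's probe was the one of highest mean log2 ratio, which need not be the brightest. With the main scaling, other probes differed by -0.04 and -0.006 for Rpl21, -0.20 for Syn1 and 0.01 for Eef1a2. The parts of scaling and probe choice in these changes were not tested. Low signal limits folds of genes that one group did not detect.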
